A study of Homo sapiens with 24 samples.

Results

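Control cells of 2 HER2-positive breast carcinoma lines, SKBR3 and HCC1954, were compared as they stood without knockdown of TFAP2C. The comparison takes 2 groups of 3 samples, 6 of the 24 samples of the series, chosen by their labels as cells that received a non-targeting siRNA (Negative control siRNA#2) with Lipofectamine RNAi_Max. The series as a whole knocks down TFAP2C, the gene of AP-2gamma, to find its target genes in growth and invasion. Cells were at passage 5 to 10, were kept for 72 to 96 h after transfection, and were not authenticated by the submitters. No label says that the samples of a group were separate cultures. Beside the controls, 3 more groups of 3 samples were used: SKBR3 and HCC1954 after TFAP2C siRNA with the same reagent, and HCC1954 clones that stably carry a lentiviral non-targeting shRNA (SHC002). The clones were made with lentivirus, so they are a derivative of the line. HCC1954 cells with TFAP2C shRNA were not used, and statements below on all or every HCC1954 group cover only the groups used.

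HER2, the product of ERBB2, is a receptor tyrosine kinase that is overproduced when its gene is amplified. Tumours with this amplification differ in the kind of mammary epithelial cell that they resemble. Luminal cells line the duct and are known for the keratins KRT8, KRT18 and KRT19 and for the transcription factors GATA3, FOXA1 and the oestrogen receptor (ESR1). Basal and myoepithelial cells sit on the basement membrane and are known for KRT5, KRT14 and KRT17, for the transcription factor p63 (TP63) and for P-cadherin (CDH3). SKBR3 is commonly classed as luminal and HCC1954 as basal-like.

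The files give 1 pooled FPKM (a read density scaled for transcript length and depth) per transcript and group. No value therefore has a replicate error, the depth of each sample is unknown, and no difference between the lines could be tested. Transcripts were summed to gene symbols and rescaled so that the 19065 protein-coding symbols sum to 1000000 in each group, and these rescaled values are called levels. A fold is the ratio of level + 1, which understates the fold of low genes, and none is given against a group listed at 0. A gene is counted as different at 4-fold or more. The only guide to the spread within a line is the pair of HCC1954 control groups, which differ in agent and come from separately normalized tables. The SKBR3 and HCC1954 values come from separate tables too. The HCC1954 siRNA table names its columns by siRNA alone. Its control had a Spearman correlation across genes of 0.949 with the HCC1954 shRNA control and of 0.890 with the SKBR3 control, where genes are not independent replicates.

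Of 12859 genes at a level of 1 or more in either line, 756 were at least 4-fold higher in SKBR3 (5.88%) and 1077 at least 4-fold higher in HCC1954 (8.38%), while 11026 were under that fold (85.7%). Between the HCC1954 siRNA and shRNA controls, 696 of 12714 genes were at least 4-fold apart (5.47%), 317 of them higher in the siRNA control (2.49%) and 379 in the shRNA control (2.98%). Against the HCC1954 shRNA control, which shares the SKBR3 samples with the main comparison, 1787 of 12906 genes were at least 4-fold apart (13.8%), 696 higher in SKBR3 (5.39%) and 1091 in HCC1954 (8.45%). At a level of 10 or more in one line and under 0.1 in the other there were 79 genes on in SKBR3 and 101 on in HCC1954, against 6 and 4 genes between the HCC1954 controls. The median log2 difference over all 12859 genes was -0.08 (SKBR3 minus HCC1954). All samples are bulk RNA, in which fewer expressing cells and less RNA per cell cannot be told apart.

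**Figure D1:**
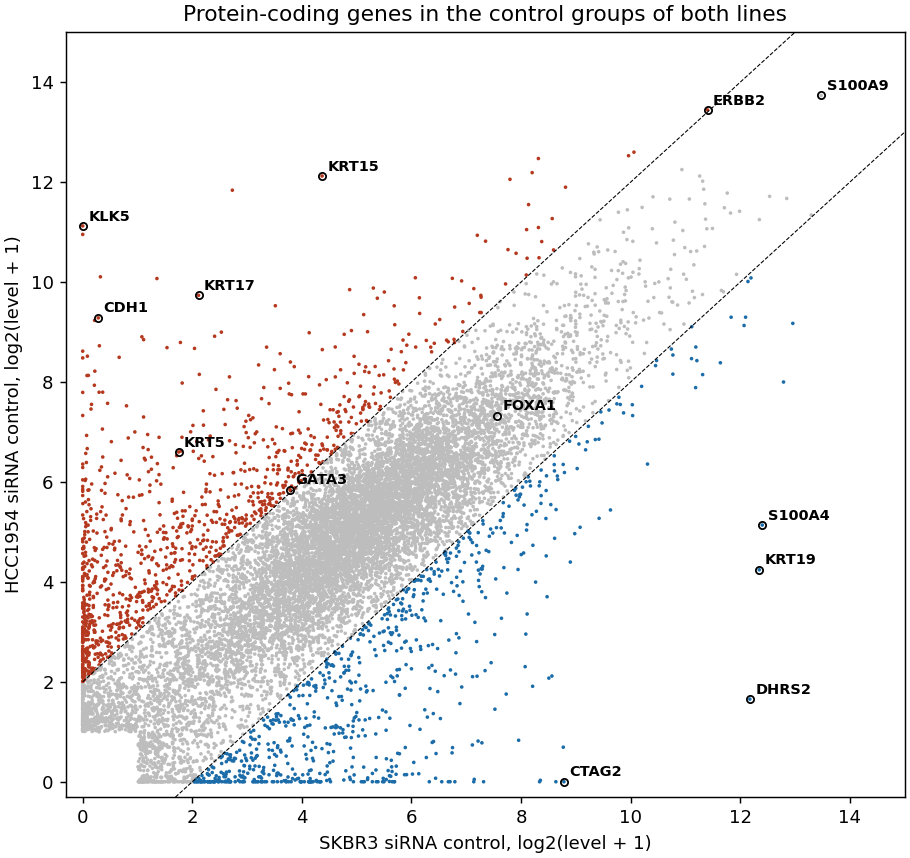
Level of each protein-coding gene in the siRNA control groups of SKBR3 (x axis) and HCC1954 (y axis), both as log2(level + 1). Points are single genes, the dashed lines mark 4-fold, and the 756 blue and 1077 red genes lie beyond them. KRT5, KRT15, KRT17, KLK5 and CDH1 sit on the HCC1954 side, KRT19, DHRS2 and S100A4 on the SKBR3 side, and GATA3 lies just past the HCC1954 line.

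Of the 3 genes taken as markers of the lines, KRT5 stood as the luminal and basal-like classes have it, and GATA3 stood the other way. KRT5 (chromosome 12, 52908359 to 52914243, hg19), a keratin of basal cells, had a level of 2.37 in SKBR3 control cells, 95.9 in HCC1954 siRNA control cells and 695 in the HCC1954 shRNA control. After TFAP2C siRNA it was at 1.42 in SKBR3 and 111 in HCC1954. All HCC1954 groups were above both SKBR3 groups, and the siRNA controls were 28.8-fold apart. GATA3 (chromosome 10, 8096667 to 8117164, hg19), a transcription factor needed for luminal cells, was at 12.8 in SKBR3 control cells, 56.6 in HCC1954 siRNA control cells and 24.7 in the HCC1954 shRNA control. After TFAP2C siRNA it was at 22.96 in SKBR3 and 64.3 in HCC1954. GATA3 was thus 4.18-fold higher in the line classed as basal-like, but its log2 difference was -0.90 against the HCC1954 shRNA control and -1.45 after TFAP2C siRNA, both under 4-fold.

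ERBB2 (chromosome 17, 37844337 to 37886816, hg19), the third marker, was high in both lines. Its level was 2709 in SKBR3 control cells, 11154 in HCC1954 siRNA control cells and 3772 in the HCC1954 shRNA control, with 1618 and 9608 after TFAP2C siRNA in SKBR3 and HCC1954. The siRNA controls were 4.12-fold apart. On the log2 scale this is -2.04 (SKBR3 minus HCC1954), against -0.48 when the HCC1954 shRNA control is used, and the HCC1954 controls differed from each other by 1.56. All HCC1954 groups were above both SKBR3 groups, but the size of the difference rests on which HCC1954 control is taken.

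Promoters of genes far apart between the lines are printed here with matches to GCCNNNGGC, a palindromic AP-2 site searched on both strands, in capitals, since AP-2gamma is the factor that the series targets and both lines express it. Each sequence is the 250 bases before the annotated start, 5′ to 3′ on the gene's strand, from RefSeq (GRCh38.p14). KRT5 (minus strand, chr12:52520395-52520644) and the kallikrein genes KLK5 (minus strand, chr19:50953039-50953288) and KLK6 (minus strand, chr19:50969592-50969841) were higher in HCC1954. DHRS2 (plus strand, chr14:23629865-23630114) was higher in SKBR3.
KRT5: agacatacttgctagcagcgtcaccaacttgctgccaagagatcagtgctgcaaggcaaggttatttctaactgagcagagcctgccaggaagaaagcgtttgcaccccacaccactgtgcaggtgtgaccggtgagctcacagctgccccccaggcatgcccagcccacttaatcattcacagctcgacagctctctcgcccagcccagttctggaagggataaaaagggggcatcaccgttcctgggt
KLK5: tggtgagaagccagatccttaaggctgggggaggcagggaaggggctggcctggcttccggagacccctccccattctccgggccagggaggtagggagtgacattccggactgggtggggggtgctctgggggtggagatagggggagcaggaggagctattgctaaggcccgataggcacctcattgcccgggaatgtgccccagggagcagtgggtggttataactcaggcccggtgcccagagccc
KLK6: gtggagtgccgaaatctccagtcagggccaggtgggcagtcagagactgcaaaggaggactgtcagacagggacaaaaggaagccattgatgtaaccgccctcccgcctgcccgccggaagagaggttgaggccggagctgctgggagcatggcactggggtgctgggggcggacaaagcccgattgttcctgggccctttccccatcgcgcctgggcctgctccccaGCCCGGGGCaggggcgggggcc
DHRS2: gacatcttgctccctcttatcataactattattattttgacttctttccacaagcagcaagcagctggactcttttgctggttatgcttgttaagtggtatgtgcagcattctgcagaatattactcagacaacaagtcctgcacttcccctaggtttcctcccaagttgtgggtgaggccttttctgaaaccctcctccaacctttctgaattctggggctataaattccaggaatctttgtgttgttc
The KLK6 window held 1 match, ending 13 bases before the start, and the other windows held 0. Of 15267 protein-coding promoters of that length 24.5% held the motif. The share was 28.7% among genes at least 4-fold higher in SKBR3 (159 of 554), 26.0% among those higher in HCC1954 (212 of 815) and 27.7% among tested genes under 4-fold (2540 of 9171). These shares lie close together, and a match is a run of letters, not a site shown to be used.

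Luminal transcription factors passed 4-fold about as often as genes in general. Of 17 listed genes 16 reached a level of 1 in either line. Of these, 1 was at least 4-fold higher in SKBR3, 2 in HCC1954, GATA3 among them, and 13 were under that fold (81.2%, against 85.7% of all tested genes). At any fold 11 were higher in SKBR3 and 5 in HCC1954, with a median log2 difference of 0.67 against -0.08 over all genes. FOXA1, a pioneer factor of luminal cells, was at 188 in SKBR3 control cells and at 159 and 199 in the HCC1954 siRNA and shRNA controls, so the SKBR3 value lay between those of the HCC1954 controls. ESR1 was at 2.04 in SKBR3 and 6.87 and 15.5 in the HCC1954 controls, and PGR, the progesterone receptor gene, was listed at 0 in all 5 groups. ESR1 was thus low in both siRNA controls, with a log2 difference of -1.37. Against the HCC1954 shRNA control its log2 difference was -2.44, past 4-fold toward HCC1954. The 0 of PGR does not show that PGR was absent.

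Factors of secretory cells were among those higher in SKBR3. ELF5, a factor of luminal progenitors and milk-producing cells, was at 18.9 in SKBR3 control cells and 16.4 after TFAP2C siRNA, and was listed at 0 in both HCC1954 controls. SPDEF, an Ets factor of secretory epithelium, was at 370.0 in SKBR3 against 108 and 50.4 in the HCC1954 controls, and at 104 in SKBR3 after TFAP2C siRNA. XBP1, a regulator of secretory capacity, was at 2071 in SKBR3 against 1064 and 273. SPDEF and XBP1 stayed under 4-fold between the siRNA controls, and ELF5 was the gene of this list past it on the SKBR3 side. Against the HCC1954 shRNA control SPDEF and XBP1 were past 4-fold, with log2 differences of 2.85 and 2.92. After TFAP2C siRNA their log2 differences were 0.31 and 0.48, with SPDEF at 83.7 in HCC1954.

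Secreted and surface products of luminal cells included 6 of 16 genes at least 4-fold higher in SKBR3 and 1 higher in HCC1954. Over all tested genes the shares were 5.88% and 8.38%. SCGB2A2, the mammaglobin gene, was at 158 in SKBR3 and listed at 0 in both HCC1954 controls. CA12, a membrane carbonic anhydrase gene, was at 295 in SKBR3 and at 2.76 and 0.597 in the HCC1954 controls, 78.9-fold apart in the siRNA controls. TFF1, a trefoil factor gene, was at 14.9 in SKBR3, listed at 0 in the HCC1954 siRNA control and at 1.94 in the shRNA control. TFF3, another trefoil factor gene, was at 19.4 in SKBR3 and listed at 0 in both HCC1954 controls. ELAPOR1 was at 27.7 in SKBR3 and 1.18 in the HCC1954 siRNA control, and SCGB1D2, a secretoglobin gene, was at 5.48 in SKBR3 and listed at 0 in HCC1954. The log2 difference of TFF1 was 1.30 after TFAP2C siRNA, under 4-fold. These 6 genes were low or at 0 in every HCC1954 control, and 4 of them were at 27.7 or less in SKBR3 too.

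AGR2 and MLPH, also luminal products, were nearly alike between the siRNA controls, and MLPH was named for its small difference there. AGR2, which helps fold secreted proteins, was at 91.2 in SKBR3 and 114 in the HCC1954 siRNA control, and MLPH at 135 and 111. In the HCC1954 shRNA control AGR2 was at 56.8 and MLPH at 49.4. The gene on the HCC1954 side was PIP, the prolactin-induced protein gene, named after its values were seen, at 0.579 in SKBR3 and 6.58 and 7.9 in the HCC1954 controls.

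Genes of apocrine metabolism also went both ways, with 2 of 11 at least 4-fold higher in SKBR3 and 4 in HCC1954. Over all tested genes the shares were 5.88% and 8.38%. DHRS2, a short-chain dehydrogenase gene whose promoter is printed above, was at 4626 in SKBR3 control cells, 2070.1 in SKBR3 after TFAP2C siRNA, and 2.15 and 15.4 in the HCC1954 controls. The siRNA controls were 1471-fold apart, and the HCC1954 values lay far below both SKBR3 groups. SERHL2, named for its likeness to serine hydrolases, was at 271 in SKBR3 against 6.75 in the HCC1954 siRNA control, but at 27.01 in SKBR3 after TFAP2C siRNA. Toward HCC1954 stood HPGD, the enzyme that inactivates prostaglandins, at 0.591 in SKBR3 and 27.2 in the HCC1954 siRNA control. KYNU, an enzyme of tryptophan breakdown, was at 9.39 and 103. CLCA2 and the cytochrome P450 gene CYP4Z1 were at 0.736 and 3 in SKBR3 and at 17.5 and 33.7 in the HCC1954 siRNA control. CYP4Z1 was at 8.95 in the HCC1954 shRNA control, and its log2 difference was -1.32 against that control and -1.87 after TFAP2C siRNA, both under 4-fold. The metabolic genes of the apocrine kind were therefore split by member and not by line.

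**Figure D2:**
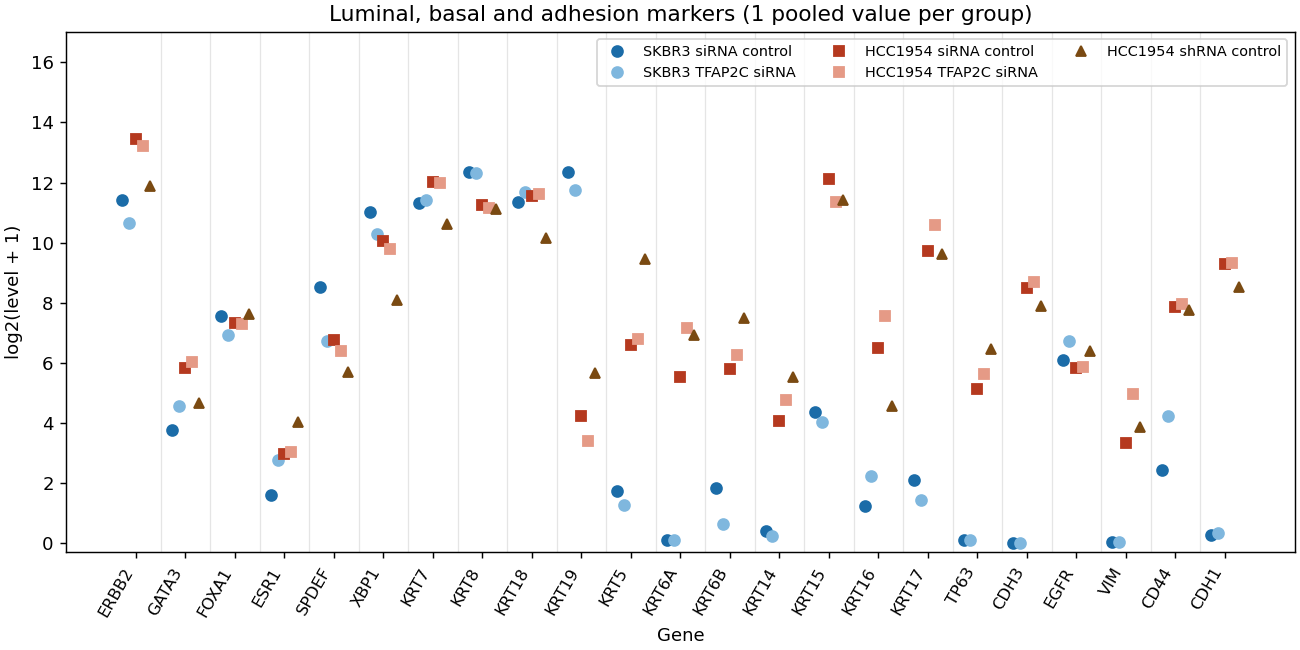
Levels of 23 luminal, basal and adhesion genes as log2(level + 1) in 5 groups, 1 pooled value per group without error. Blue circles are SKBR3, red squares the HCC1954 siRNA groups and brown triangles the HCC1954 shRNA control. The basal keratins, TP63, CDH3, VIM, CD44 and CDH1 lie higher in every HCC1954 group than in both SKBR3 groups, and KRT19 lies lower.

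Basal and stress keratins had the lowest median of the 24 lists. Of 9 listed genes, 9 were at least 4-fold higher in HCC1954 (against 8.38% of all tested genes), with a median log2 difference of -4.85. KRT15 (chromosome 17, 39669997 to 39675270, hg19), a keratin of basal and progenitor cells, was at 19.7 in SKBR3 and 4459.5 and 2717 in the HCC1954 controls. KRT17 was at 3.33 in SKBR3 and 851 and 792 in the HCC1954 controls, 197-fold apart in the siRNA controls. KRT14, the usual partner of KRT5, was at 0.321 in SKBR3 and 15.6 and 45.2 in the HCC1954 controls. The basal keratins of the HCC1954 siRNA control were thus led by KRT15 and KRT17, not by the KRT5 and KRT14 pair. In the HCC1954 shRNA control KRT5, at 695, stood close to KRT17. KRT6A, which epidermis makes under stress, was at 0.0831 and 45.7, KRT16 at 1.39 and 89.3, and KRT6B at 2.58 and 54.4, in SKBR3 and the HCC1954 siRNA control. Between the HCC1954 controls the log2 difference was -2.84 for KRT5, 0.71 for KRT15 and 0.11 for KRT17 (siRNA minus shRNA), so KRT5 varied most of these 3 within the line.

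Of 7 listed simple epithelial keratins 6 reached a level of 1 in either line, and KRT7, KRT8 and KRT18 were abundant in both. KRT8 was at 5218 in SKBR3 and 2434 in the HCC1954 siRNA control, KRT18 at 2619 and 3032, and KRT7 at 2547 and 4150.3. KRT19 (chromosome 17, 39679869 to 39684641, hg19), a luminal keratin, was at 5212 in SKBR3 control cells and 3444 after TFAP2C siRNA. In HCC1954 it was at 17.9 in the siRNA control, 9.59 after TFAP2C siRNA and 49.3 in the shRNA control. KRT19 was 276-fold higher in SKBR3, whereas KRT15, which lies beside it on the chromosome, was 216-fold higher in HCC1954. KRT23 was the keratin of this list past 4-fold on the HCC1954 side, at 8.25 in SKBR3 and 323 and 49.1 in the HCC1954 controls.

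The hair-type keratins were also higher in the HCC1954 siRNA control, 3 of 3 past 4-fold (against 8.38% of all tested genes). KRT81 was at 996 in SKBR3 and 5910.2 and 1799 in the HCC1954 controls, and KRT86 at 33.98 against 651 and 72.4. KRT83 was at 2.44 against 442 and 3.62, so its large difference was seen in one HCC1954 control and not in the other. Against the HCC1954 shRNA control none of the 3 was past 4-fold, with log2 differences of -0.85 for KRT81, -0.42 for KRT83 and -1.07 for KRT86. The hair-type genes are close copies of each other, as are KRT6A, KRT6B and KRT6C, and reads can be split between copies.

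Other basal and myoepithelial genes were mostly higher in HCC1954, although 12 of the 34 listed genes were under a level of 1 in both lines. Of the 22 measured, 13 were at least 4-fold higher in HCC1954 and 1 in SKBR3 (against 8.38% and 5.88% of all tested genes). The median log2 difference was -2.52. CDH3, the P-cadherin gene, was listed at 0 in both SKBR3 groups and stood at 357, 417 and 238 in the HCC1954 siRNA control, TFAP2C siRNA and shRNA control groups. TP63, the p63 gene that maintains basal cells, was at 0.0709 in SKBR3 and 34.1 and 88.1 in the HCC1954 controls. Both genes were thus on in every HCC1954 group and at or near 0 in SKBR3. ITGA6, the alpha-6 integrin gene of hemidesmosomes, was at 0.0256 in SKBR3 and 29.9 in the HCC1954 siRNA control. FOXC1, a forkhead factor of basal-like tumours, was at 0.5 and 24.5, and CAV2, a caveolin gene, at 5.95 and 94.9. SNAI2, a repressor of epithelial genes, was listed at 0 in both SKBR3 groups and at 15.7 in the HCC1954 siRNA control. ACTA2, the actin gene of contractile myoepithelium, was at 2.39 and 3.91, so it did not mark HCC1954. CRYAB, a small heat shock protein gene named after its values were seen, was the member past 4-fold on the SKBR3 side, at 15.5 and 0.643. GABRP, under 4-fold between the siRNA controls, was at 56.5 in SKBR3 and 133 and 5.18 in the HCC1954 controls. Its direction thus depends on which HCC1954 control is taken, with a log2 difference of 3.22 against the shRNA control.

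Mesenchymal genes had the same direction, but ZEB1 and CDH2 were near 0 in both lines. Of 18 genes at a level of 1 or more, 11 were at least 4-fold higher in HCC1954 and 2 in SKBR3. The shares over all tested genes were 8.38% and 5.88%. The median log2 difference of the list was -2.59. MSN, the gene of the membrane and cytoskeleton linker moesin, was at 0.159 in SKBR3 and 244 and 309.6 in the HCC1954 controls. CD44, the hyaluronan receptor gene, was at 4.4 against 230.2 and 214. MMP14, a membrane-bound matrix protease gene, was at 0.0137 against 24.6 and 3.47, and CAVIN1, a coat gene of caveolae, at 6.4 against 74.7 and 284. These genes were higher in both HCC1954 controls than in SKBR3. VIM, the vimentin gene, was at 0.0239 in SKBR3 and 9.09 and 13.5 in the HCC1954 controls, a low level beside those of the keratins. ZEB1, a repressor of epithelial genes, was at 0.0346 and 0.0524, and FN1, the fibronectin gene, at 23.8 and 36.3, with 544 in the HCC1954 shRNA control. FN1 was thus far apart between the HCC1954 controls and under 4-fold between the siRNA controls of the lines. CDH2, the N-cadherin gene, was at 0.0125 in SKBR3, listed at 0 in the HCC1954 siRNA control and at 0.272 in the shRNA control.

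S100A4 was among the mesenchymal genes on the SKBR3 side. S100A4, a calcium-binding protein gene tied to cell motility, was at 5412 in SKBR3 control cells, 1041 in SKBR3 after TFAP2C siRNA, and 34.2 and 38.1 in the HCC1954 controls.

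Among epithelial junction genes the E-cadherin gene was the farthest apart. All 27 listed genes reached a level of 1, 20 were under 4-fold (74.1%, against 85.7% of all tested genes), 3 were higher in SKBR3 and 4 in HCC1954. CDH1 (chromosome 16, 68771193 to 68869445, hg19), the E-cadherin gene, was at 0.218 in SKBR3 control cells and 0.258 after TFAP2C siRNA. In HCC1954 it was at 622 in the siRNA control, 643 after TFAP2C siRNA and 368 in the shRNA control. The siRNA controls were 512-fold apart, and SKBR3 is known as a line without E-cadherin. CLDN1, a claudin gene of tight junctions, was at 7.62 in SKBR3 and 155 in the HCC1954 siRNA control, while CLDN3 was at 293 and 39.6. PKP1, a desmosomal plakophilin gene, was at 17.1 in SKBR3, listed at 0 in the HCC1954 siRNA control and at 0.0191 in the shRNA control. After TFAP2C siRNA the log2 difference of PKP1 was 1.97, just under 4-fold. The claudin genes CLDN1 and CLDN3 therefore stood on opposite sides. ESRP1, an epithelial splicing regulator gene, was at 28.95 and 522, and GRHL2, a grainyhead factor of epithelium, at 24.1 and 102. RAB25 was at 477 in SKBR3 and 482 in the HCC1954 siRNA control, and CLDN7 at 692 and 685, so each of these 2 stood at nearly one level.

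Epidermal differentiation and defence genes were at least 4-fold higher in HCC1954 in 10 of 21 cases and in SKBR3 in 1. The shares over all tested genes were 8.38% and 5.88%. KLK5 (chromosome 19, 51446559 to 51456344, hg19), a kallikrein protease gene, was at 2230.1, 1986 and 808 in the HCC1954 siRNA control, TFAP2C siRNA and shRNA control groups and was listed at 0 in both SKBR3 groups. KLK6 (chromosome 19, 51461887 to 51472929, hg19), its neighbour, was at 1983, 2069 and 685 in the same HCC1954 groups, listed at 0 in SKBR3 control cells and at 0.0494 after TFAP2C siRNA. KLK8 and KLK7 were at 392 and 26.9 in the HCC1954 siRNA control and listed at 0 in SKBR3. This kallikrein group was on in all HCC1954 groups and at or near 0 in SKBR3. SERPINB5, the maspin gene, was at 0.0378 in SKBR3 and 35.4 in the HCC1954 siRNA control. IVL, the gene of the cornified envelope protein involucrin, stood the other way, at 182 and 6.71. S100A9, a calprotectin subunit gene, had the highest level of all genes in the siRNA controls of both lines, at 11396 and 13636.

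Interferon-stimulated and antigen presentation genes were higher in HCC1954 in 15 of 24 cases by at least 4-fold and in SKBR3 in 0. The shares over all tested genes were 8.38% and 5.88%. The median log2 difference of the list was -2.90. The class I gene HLA-B was at 8.88 in SKBR3 and 236 and 149 in the HCC1954 controls, and HLA-C at 11.2 against 378 and 154. B2M, their common light chain gene, was at 2642 against 2449.7 and 1892. HLA-B and HLA-C were thus past 4-fold, and B2M stood far inside it. The files place genes of this region on alternate haplotype contigs, and HLA reads can be lost or split by allele, so these values are uncertain. IFI27, an interferon-induced gene, was at 1.56 in SKBR3 and 1075 in the HCC1954 siRNA control, but at 64.7 in the shRNA control. IFIT3 was at 1.63 and 118, and IFIT1 at 0.359 and 24.8, in SKBR3 and the HCC1954 siRNA control. The median of the list was 0.98 between the HCC1954 controls (siRNA minus shRNA) and -2.03 between SKBR3 and the shRNA control.

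Inflammatory genes were at least 4-fold higher in HCC1954 in 7 of 16 cases and in SKBR3 in 0. The shares over all tested genes were 8.38% and 5.88%. CXCL8, the interleukin 8 gene, was at 2.92 in SKBR3 and 127 and 1442 in the HCC1954 controls. LIF, a cytokine gene, was at 1.57 in SKBR3 and 81.5 and 89.7 in the HCC1954 controls. PTGS2, the inducible cyclooxygenase gene, was listed at 0 in SKBR3 control cells and stood at 15.7 and 63.8. The HCC1954 controls lay close together for LIF and far apart for CXCL8. RELB, a subunit of NF-kB, was at 23.4 in SKBR3 and 25.6 in the HCC1954 siRNA control. CCL2, a chemokine gene, was at 29.8 and 26.8, with 608 in the HCC1954 shRNA control.

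**Figure D3:**
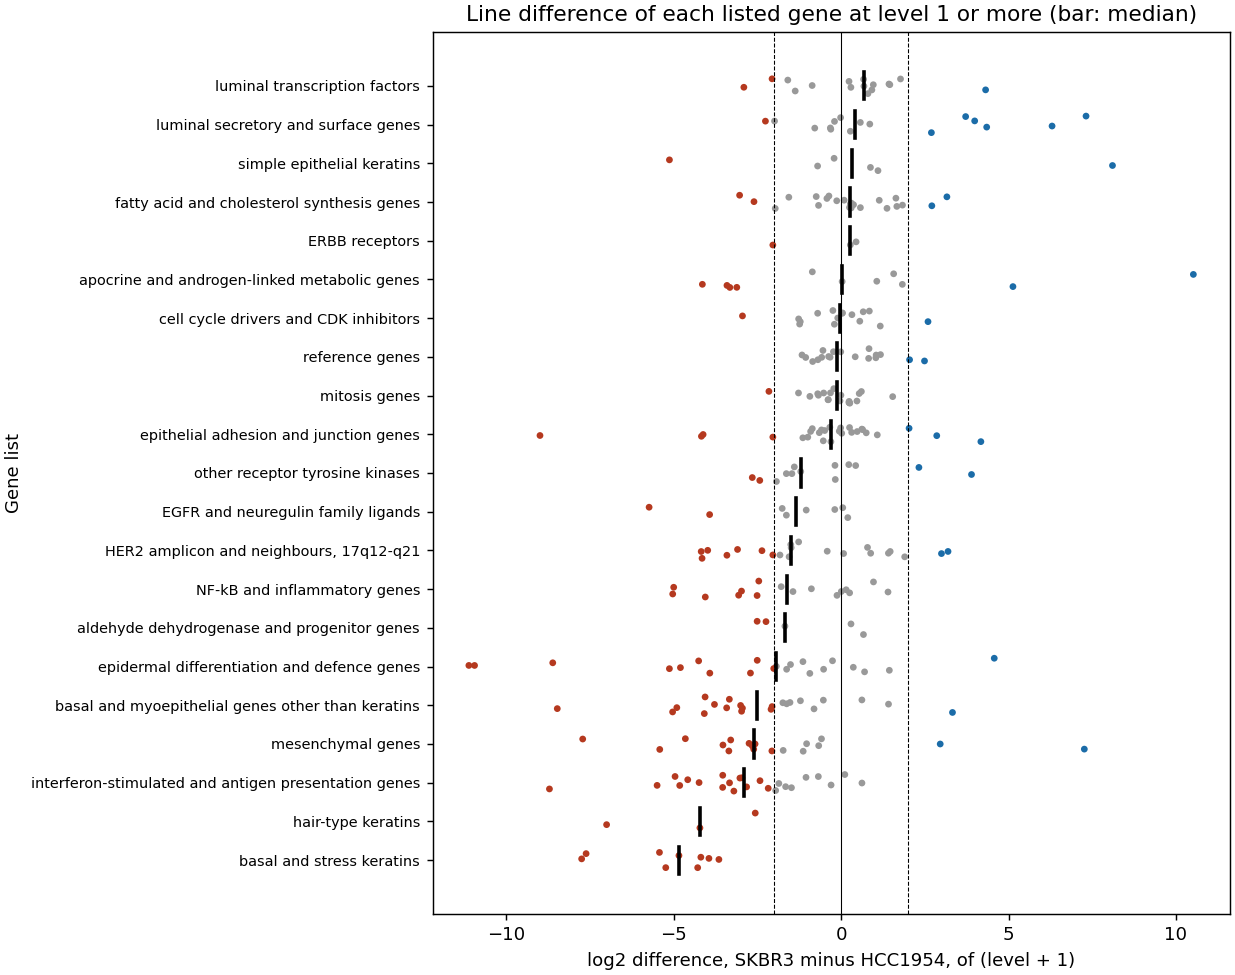
Log2 difference, SKBR3 minus HCC1954, of level + 1 for each listed gene at a level of 1 or more in either siRNA control. Each point is a gene, blue at least 4-fold higher in SKBR3 and red in HCC1954, dashed lines mark 4-fold and black bars the list medians. Basal and stress keratins have the lowest median, -4.85, and luminal transcription factors stand at 0.67.

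The genes around ERBB2 on chromosome 17 formed a core that was higher in the HCC1954 siRNA control, between genes that were higher in SKBR3. Of 23 listed genes 21 reached a level of 1, 7 were at least 4-fold higher in HCC1954 and 2 in SKBR3. The shares over all tested genes were 8.38% and 5.88%. GRB7, an adaptor gene whose product binds HER2, was at 294 in SKBR3 and 4672 and 1114 in the HCC1954 controls. STARD3, a cholesterol transfer gene, was at 281 against 2999.6 and 1234. ORMDL3, a regulator of sphingolipid synthesis, was at 318 against 5684 and 3939. These core genes were higher in both HCC1954 controls, less so in the shRNA control. TCAP was at 14.3 against 130.3 and 45.9, and PPP1R1B, the DARPP-32 gene, at 7.36 against 151 and 20.7. Against the shRNA control GRB7, TCAP and PPP1R1B were under 4-fold, with log2 differences of -1.92, -1.61 and -1.38. GSDMB, a gasdermin gene named after its values were seen, was at 642 against 1549 and 152, so in the shRNA control it lay below SKBR3.

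On the side before this core, CDK12, a kinase gene, was at 398 in SKBR3 against 42.6 and 74.7 in the HCC1954 controls, 9.14-fold apart in the siRNA controls. MED1, a Mediator subunit gene named after its values were seen, was at 372 against 45.7 and 40.5. Beyond the core, PSMD3, MED24 and CASC3, also named after their values were seen, were at 635, 174 and 323 in SKBR3 against 238, 45.99 and 116 in the HCC1954 siRNA control. THRA, the thyroid hormone receptor alpha gene, was at 28.7 and 27.2, so not every gene beyond the core was clearly higher in SKBR3 there. In the HCC1954 shRNA control THRA was at 10.96. PGAP3 and MIEN1 overlap ERBB2 in the files' loci and no source states whether strand was used in counting, so reads at those ends cannot be assigned.

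**Figure D4:**
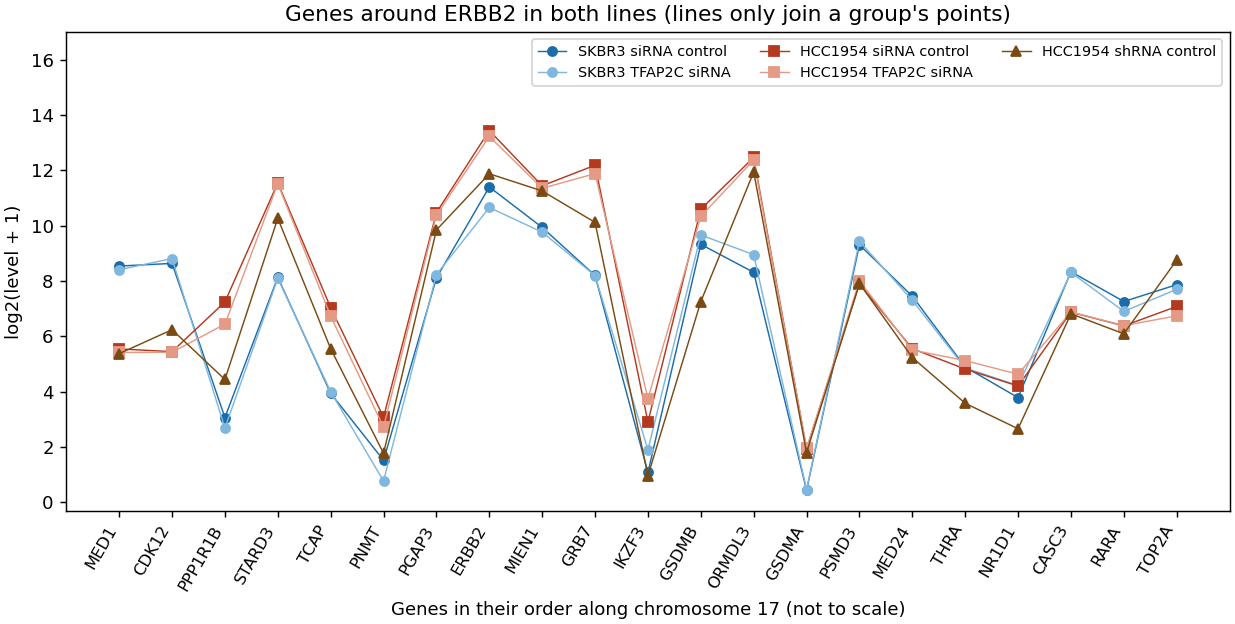
Levels as log2(level + 1) of 21 genes in their order along chromosome 17 in 5 groups, 1 pooled value each. From PPP1R1B to ORMDL3 the HCC1954 siRNA groups (squares) lie above SKBR3 (circles), and at MED1, CDK12, PSMD3, MED24 and CASC3 SKBR3 lies above all HCC1954 groups.

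The other ERBB receptors were under 4-fold apart. EGFR was at 67.1 in SKBR3 and 55.3 and 82.9 in the HCC1954 controls. ERBB3, the partner of HER2 with a weak kinase, was at 126 against 92.6 and 33.8, and ERBB4 was at 0.0669 or less in these groups. Among the ligands, 2 of 8 were at least 4-fold apart, both higher in HCC1954. The other 6 were under that fold (75%, against 85.7% of all tested genes). TGFA, an EGFR ligand gene, was at 0.0685 in SKBR3 and 56.1 and 24.1 in the HCC1954 controls, and AREG, the amphiregulin gene, at 0.722 against 25.3 and 12.8. NRG1, the neuregulin gene, was listed at 0 in all 5 groups. TGFA and AREG were thus near 0 in SKBR3 and on in HCC1954, at like EGFR levels. At any fold 6 of the 8 ligands were higher in HCC1954 and 2 in SKBR3. The summed level of the ligand list was 24.3 in SKBR3 against 122 and 55.0 in the HCC1954 controls. SKBR3 therefore held other ligand transcripts. The median log2 difference of the ligands was -1.34, and -0.19 against the HCC1954 shRNA control.

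Other receptor tyrosine kinases differed by member, with 2 of 13 at least 4-fold higher in each line. Under that fold were 9 (69.2%, against 85.7% of all tested genes). FGFR2, a fibroblast growth factor receptor gene, was at 26.5 in SKBR3 and 0.85 in the HCC1954 siRNA control, and FGFR3 at 10.1 and 1.22. FGFR4 was at 11.04 and 74.9, and EPHA2, an ephrin receptor gene, at 21.1 and 118. FGFR2 and FGFR4 therefore stood on opposite sides. FGFR3 was at 4.65 in the HCC1954 shRNA control, and its log2 difference was 0.98 against that control and 0.41 after TFAP2C siRNA, both under 4-fold. That of EPHA2 was -1.63 after TFAP2C siRNA, also under 4-fold.

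TFAP2C itself was at 384 in SKBR3 and 220.4 and 200.4 in the HCC1954 siRNA and shRNA controls. After TFAP2C siRNA it was at 143 in SKBR3 and 52.6 in HCC1954. TFAP2A, which binds the same kind of site, was at 58.1 in SKBR3 against 47.3 and 62.4, and TFAP2B at 1.43 or less in these 3 groups. For TFAP2C and TFAP2A the lines were under 2-fold apart before knockdown.

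Of 20 mitosis genes 19 were under 4-fold (95%, against 85.7% of all tested genes), with a median log2 difference of -0.13, and NDC80, a kinetochore gene, was at 9.67 in SKBR3 and 46.6 in the HCC1954 siRNA control. Against the HCC1954 shRNA control the median of the mitosis genes was -1.24. CCND1, the cyclin D1 gene, was at 274 in SKBR3 against 2119.9 and 1134 in the HCC1954 controls. CDKN2C, a CDK inhibitor gene, was at 73.2 against 11.3 and 105, so its direction depends on which HCC1954 control is taken. Of 23 fatty acid and cholesterol synthesis genes 19 were under 4-fold (82.6%), close to the share over all genes. FASN, the fatty acid synthase gene, was at 1049 in SKBR3 and 159.7 and 152 in the HCC1954 controls, and THRSP, which promotes lipogenesis, was at 7.93 in SKBR3 and listed at 0 in HCC1954. THRSP was at 0.552 in SKBR3 after TFAP2C siRNA, a log2 difference of 0.63 that is under 4-fold. FADS2, a fatty acid desaturase gene, was at 0.116 in SKBR3 and 8.14 in the HCC1954 siRNA control, and ACSL4, an acyl-CoA synthetase gene, at 0.471 and 7.95. The lipid genes past 4-fold were thus split evenly between the lines. ALDH1A3, an aldehyde dehydrogenase gene of mammary progenitors, was at 209 in SKBR3 against 997 and 1055.

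Several of the largest differences lay outside these lists. LDHB, a lactate dehydrogenase subunit gene, was at 397 in SKBR3, listed at 0 in the HCC1954 siRNA control and at 0.178 in the shRNA control. CBR1, a carbonyl reductase gene, was at 323 in SKBR3, listed at 0 in the HCC1954 siRNA control and at 0.0526 in the shRNA control. CTAG2, a cancer-testis antigen gene, was at 439 in SKBR3 and listed at 0 in all HCC1954 groups. These SKBR3 genes were at or near 0 in both HCC1954 controls. ATP2A3, a calcium pump gene, was at 326 in SKBR3 and 0.0203 in the HCC1954 siRNA control, and FKBP10, a collagen chaperone gene, at 436 and 0.615.

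Toward HCC1954, CES1, a carboxylesterase gene, was at 0.251 in SKBR3 and 1101 and 1804 in the HCC1954 controls. RARRES1, a retinoid-responsive gene, was at 5.64 against 3662 and 1195, and LGALS3, the galectin-3 gene, at 0.162 against 601 and 550.2. Each of these kept its side in both HCC1954 controls. GPX1, the glutathione peroxidase gene, was at 0.235 against 422 and 514, and OSMR, the oncostatin M receptor gene, at 0.0555 against 279 and 280.2. Ribosomal protein genes also ranked among the most abundant, but they have many near-identical copies, and RPL19 was at 2595 and 447 in the HCC1954 controls. Of 18 reference genes 16 were under 4-fold (88.9%, close to the 85.7% of all tested genes). The others, PPIA and RPL13A, were higher in SKBR3, at 1420.3 and 2335 against 344 and 415 in the HCC1954 siRNA control. PPIA was at 653 in the HCC1954 shRNA control, a log2 difference of 1.12 that is under 4-fold.

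Defining markers of other cell types were near 0 in both lines, with exceptions among endothelial and leukocyte genes. The summed level of 8 fibroblast markers was 1.46 in SKBR3, 3.28 in the HCC1954 siRNA control and 0.855 in the shRNA control, and LUM, the lumican gene, was listed at 0 in all 5 groups. The sum of 7 leukocyte markers was 73.2, 20.7 and 18.1 in these groups, of which CD68, a lysosomal gene, gave 71.99, 19.4 and 15.2. PTPRC, which defines leukocytes, was at 0.127 or less in them. The sum of 6 endothelial markers was 27.1, 75.2 and 53.4. PECAM1, an endothelial adhesion gene, was at 0.0321 in SKBR3 and 64.3 and 28.7 in the HCC1954 controls, and CDH5 at 26.4 against 9.63 and 23.7. KDR and VWF, which define endothelium, were at 0.903 or less, so PECAM1 and CDH5 were read without them.

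In some stretches of the chromosomes most neighbouring genes differed in one direction. The running median over 40 neighbouring genes spanned -2.17 to 1.81 between the lines, and -0.89 to 1.14 between the HCC1954 controls. It reached 1 or more in size in 618 of 11876 windows (5.20%) between the lines and in 16 (0.135%) between the HCC1954 controls. Both comparisons used the genes at a level of 1 or more in either siRNA control. Single genes were also farther apart between the lines, with 14.3% past 4-fold against 5.47% between the HCC1954 controls. The wider window medians alone therefore do not show blocks. Windows overlap and share genes, and copy number was not measured here. The highest lay on chromosome 20 (16252749 to 25677540, hg19), where 37 of 40 genes were higher in SKBR3, 15 of them by at least 4-fold, led by CST3, the cystatin C gene, at 247 in SKBR3 and 0.778 in the HCC1954 siRNA control. The next was also on chromosome 20 (33462766 to 36720766), with a median of 1.55, and was led by MYL9, a myosin light chain gene, at 34.3 in SKBR3 and listed at 0 in HCC1954. The third lay on chromosome 10 (74127084 to 81276192), with a median of 1.49, and was led by P4HA1, a collagen hydroxylase gene, at 245 and 17.99.

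The lowest window lay at the start of chromosome 9 (116231 to 17503921), where 36 of 40 genes were higher in HCC1954, 21 of them by at least 4-fold. SLC1A1, a glutamate transporter gene, was at 2.51 in SKBR3 and 118 in the HCC1954 siRNA control, and SMARCA2, a chromatin remodeller gene, at 6.91 and 126. On chromosome 8 the direction changed along the arm. Medians were 1.31 from 71021997 to 91095109, -2.02 from 92114847 to 102681952 and 1.27 from 110253148 to 126034525, and the last of these was 0.25 against the HCC1954 shRNA control. The middle window was led by PDP1, a phosphatase gene, at 1.9 in SKBR3 and 411 in the HCC1954 siRNA control, and held ESRP1 and GRHL2, described above.

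A window on chromosome 16 (67233028 to 69202937) had a median of -1.56 and held both cadherin genes, CDH1 and CDH3, and HAS3, a hyaluronan synthase gene, at 0.396 in SKBR3 and 26.2 in the HCC1954 siRNA control. In this window 36 of 40 genes were higher in HCC1954. Its median was -0.87 against the HCC1954 shRNA control and 0.61 between the HCC1954 controls. A window on chromosome 19 (20115227 to 33873592), also with a median of -1.56, was led by zinc finger genes such as ZNF675 at 0.0228 and 16.98 and ZNF91 at 0.0359 and 16.5. The fifth, with a median of -1.51 and of -0.57 against the shRNA control, lay in the HLA region on an alternate haplotype contig.

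**Figure D5:**
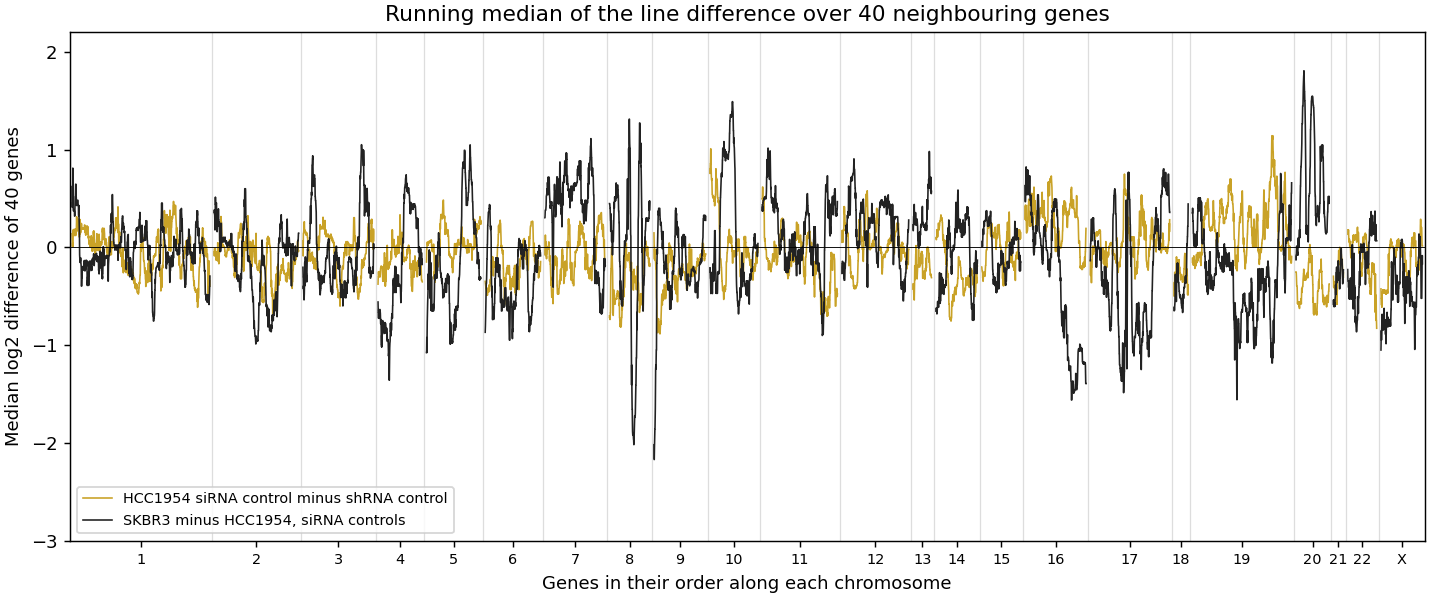
Running median of the log2 difference of level + 1 over 40 neighbouring genes, in gene order along each chromosome, for SKBR3 minus HCC1954 (black) and for the HCC1954 siRNA control minus shRNA control (yellow). The black line reaches 1.81 on chromosome 20 and -2.17 at the start of chromosome 9, and the yellow line stays between -0.89 and 1.14.

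The lines were also compared in other samples, their TFAP2C siRNA groups, which share no sample with the controls but were normalized in the same tables. There 707 genes (5.45%) were at least 4-fold higher in SKBR3 and 983 (7.57%) in HCC1954. Of the genes higher in SKBR3, 548 were shared (72.5% of those in the controls and 77.5% of those after siRNA), and of the genes higher in HCC1954, 845 were shared (78.5% and 85.96%). The opposite sign after siRNA was seen for 0 of the 756 and 1 of the 1077. That gene was PMAIP1, a pro-apoptotic gene named after its values were seen, at 25.1 and 161 in SKBR3 without and with TFAP2C siRNA and 146 and 154 in HCC1954. It stood at one level in HCC1954 and was higher in SKBR3 after the siRNA. The median of the basal and stress keratins was -5.62, and that of the luminal transcription factors 0.30, in this comparison.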

How the data were processed

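RNA was sequenced from TruSeq libraries, per the labels' protocols. The submitters' processing notes name Bowtie 0.12.2, Cuffdiff and hg19, and do not state whether strand was used. The authors deposited 1 FPKM value per RefSeq accession and group, with the 3 samples of a group pooled, in tables normalized separately. Of 66321 accessions 65468 were matched to symbols (RefSeq names, GRCh38.p14, used for names only), and the 853 unmatched held 1.04% to 1.55% of FPKM per group. FPKM were summed per symbol and rescaled over protein-coding symbols. Log2 differences used a pseudocount of 1, with a minimum level of 1 in either group. No test was possible with 1 pooled value per group. Members and lists were chosen with earlier results of these data known. Genes were named by rule: the markers, the AP-2 and ERBB families, up to 6 genes past 4-fold with the largest difference and up to 2 with the smallest (level of 10 or more in both lines) per list, the 12 largest differences per direction at a level of 10 or more, the 10 highest per line and up to 4 leading genes per window. Exceptions are marked in the text, and some listed genes are not reported here. The calculation was tested on simulated data. Alternatives changed the scaling, pseudocount, filter, fold, transcript summing and groups. Python 3.11.15, pandas 2.3.3 and numpy 2.4.6 were used.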

Additional observations from a re-analysis of the deposited data

How the results depend on the processing

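The counts of genes at least 4-fold higher in SKBR3 and in HCC1954 (756 and 1077) were 404 and 559 with a pseudocount of 5, 2272 and 2846 at 2-fold and 318 and 484 at 8-fold. By a difference of 25 points in percentile rank they were 533 and 642. Other scalings, filters and groups left both within 1.5 times. The median of the luminal transcription factors (0.67) was 0.55 without rescaling, 0.83 with the highest transcript per symbol, 0.36 with a pseudocount of 5, 0.51 against the HCC1954 shRNA control, 0.30 in the TFAP2C siRNA groups and 3.25 points in percentile rank. That of the basal and stress keratins (-4.85) was, in the same order, -4.28, -4.96, -3.32, -5.66, -5.62 and -37.4 points, and -5.93 with a pseudocount of 0.1. Of the 144 genes past 4-fold that the naming rule gave, 1 changed sign under any of 11 settings: CDKN2C, at -0.52 against the HCC1954 shRNA control, and the cause was not tested. The pseudocounts and filters cannot change a sign, and the scalings shifted the median log2 difference by 0.033 or less. Only the transcript choice, the other groups and the ranks could reverse such genes, so the tally says little about the other settings. Genes named after their values were seen are not in this tally, and of these PMAIP1 changed sign in the TFAP2C siRNA groups and GSDMB, under 4-fold in the main comparison, against the HCC1954 shRNA control. No paired analysis was possible because the deposited tables hold 1 pooled value per group, and for the same reason no sample could be left out. The line of the HCC1954 siRNA table is taken from its name. Depth is unknown, so a gene listed at 0 is not shown to be absent.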

Other observations

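HOX genes, the clustered homeobox genes that keep a record of a cell's position along the body axis, were looked at as a list chosen after their values were seen. Of 39 genes in the 4 clusters 19 reached a level of 1 in either siRNA control, 0 were at least 4-fold higher in SKBR3 and 11 in HCC1954 (background 5.88% and 8.38%). The summed level of the HOXA cluster was 0.0289 in SKBR3, 70.0 in the HCC1954 siRNA control and 156 in the shRNA control. That of the HOXB cluster was 0.0877, 218 and 161, led by HOXB2 at 159.9 in the HCC1954 siRNA control and listed at 0 in SKBR3 control cells. Both clusters were thus near 0 in SKBR3, and part of their genes were on in HCC1954. A level of 1 in either siRNA control was reached by 8 of 11 HOXA genes and 4 of 10 HOXB genes. The HOXC cluster was on in both lines, with summed levels of 91.7, 132 and 167, and HOXC13 was at 48.03 in SKBR3 and 38.7 in the HCC1954 siRNA control. No HOXD gene reached a level of 1 in the siRNA controls.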
